A study of Drosophila melanogaster with 6 samples.

Results

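The subunit genes of the proteasome were examined in cells sorted from Drosophila embryos. Their members were the probe sets whose single annotated gene symbol begins with Prosalpha, Prosbeta, Rpn or Rpt and a digit, and the brightest probe set over the 6 arrays stood for each gene. This gave 39 genes out of 10844 measured, covered by 41 probe sets. They fell into 12 genes of the core particle, 7 of the lid, 7 of the base and 13 paralogs whose symbols carry a T or an R after the digit.

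All embryos carried TinD-GFP, a green fluorescent protein reporter aimed at cardiac mesodermal cells that express Tinman, and were collected at late stage 11 to early stage 12. Dissociated cells were sorted by flow cytometry into GFP-positive cells and the GFP-negative cells of the same genotype, with no other allele or treatment in the labels. RNA of each population was measured on 3 Affymetrix arrays, and the labels do not say whether the replicates are separate collections, so p-values measure only the spread between these arrays, which may be technical. The comparison asks which genes differ between the labelled cells and the rest of the embryo, and every difference below is GFP-positive minus GFP-negative on the log2 scale.

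The proteasome is the protease that degrades proteins tagged with ubiquitin in the cytoplasm and nucleus. Its barrel-shaped core is built of stacked alpha and beta rings, with the active sites inside the beta rings. A regulatory cap sits on the end of the barrel. The base of the cap holds the Rpt ring of ATPases, which unfold substrates and thread them into the core, and the lid removes the ubiquitin chain. Dividing embryonic cells need this machinery to clear cyclins and other short-lived regulators. In Drosophila several core and cap subunits have a second gene copy known for expression in the male germ line.

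The arrays had medians between 3.71 and 3.73, so no array stood apart by its overall level. The background level used here, the highest mean among 23 control probe sets for genes of other organisms, was 2.44, and the highest of these controls on single arrays lay between 2.58 and 3.55. Of the 11 cardiac mesoderm markers listed, 10 were measured and 0 were called by limma at an adjusted p under 0.05, with 3 lower and 1 higher at an unadjusted p under 0.05. Over all genes limma called 0.968% lower and 1.5% higher. At the unadjusted p 8.29% were lower and 7.33% higher, and 21.0% and 16.6% of genes with a mean level above 6. The mean level of the cardiac markers was 4.71 to 4.81 on GFP-positive and 4.21 to 4.89 on GFP-negative arrays, so cardiac identity of the sorted cells is not shown by them. The listed marker without a measurement was tin, the gene of Tinman itself, so the gene that the reporter is aimed at was not examined. All 5 somatic muscle markers rose, with a mean level of 6.39 to 6.49 on GFP-positive and 5.40 to 5.48 on GFP-negative arrays. Mean levels of the hemocyte markers were 5.34 to 5.55 against 4.66 to 5.19, with 0 of 5 called and 4 higher at an unadjusted p under 0.05. Of these 4, Hml, at 1.84 and -0.01, lay below background in both groups, and the fifth marker, crq, differed by -0.003. Mean levels of the germline markers were 4.15 to 4.37 against 3.66 to 3.84. Of 5 measured, 4 had a positive difference and 1, aub, at 5.15 and 5.27, a negative one of -0.12. Only tud rose, by 0.50 ± 0.10 (SE, adjusted p = 0.040), while vas, at 1.97 and 0.48, lay below background in both groups. Hml and vas enter these mean levels, so signal below background adds to both gaps. Epidermis markers lay at 6.95 to 7.00 against 6.65 to 6.90, and glia markers at 5.14 to 5.35 against 5.20 to 5.24. Neuron markers lay at 4.04 to 4.77 against 3.67 to 4.03. Of 4 neuron markers 0 were called and 1 was higher at an unadjusted p under 0.05. Among them nSyb, at 1.80 and 0.74, lay below background in both groups, so such signal adds to the neuron gap as well. The median annotated span, which is taken up below, was 56635 bases for the somatic muscle markers and 28511 for the epidermis markers. It was 23466.5 for the neuron and 13948 for the hemocyte markers, against 2385 over all genes. Genes of long span above a mean level of 6 had mostly positive differences, and the part of span in these marker gaps was not tested. The part of these cell types in the results below was not tested. In such bulk samples, fewer cells of a type and less RNA per cell cannot be told apart.

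Proteasome subunit genes had lower signal in GFP-positive cells almost throughout the core, the lid and the base. Of these 26 genes 25 had a negative difference, and the median difference was -0.20, against -0.02 over all genes. Only 3 genes passed the test, Rpn3, Rpn11 and Rpn12, all of the lid, and all of them fell. In 19 of the 26 genes every GFP-positive array lay below every GFP-negative array, which is 73.1%, where 11.0% of all genes show this. The 3 called genes are 11.5% of the 26, against 0.968% of all genes called lower, and none of the 26 was called higher, against 1.5% of all genes. When one common prior variance was used, limma called none of the 3 (adjusted p = 0.317 to 0.393), and without the dimmest 40% of probe sets it called 5 of the 26, Prosalpha6 and Prosalpha7 in addition. No member had all GFP-positive arrays above the GFP-negative ones, where 9.28% of all genes did.

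The 26 genes were all well measured, with mean levels between 6.60 and 8.70, where arrays scatter little. Among the 2385 genes with a mean level above 6, a level chosen after seeing the data, 3.9% were called lower and 23.1% had groups that did not overlap in that direction. The median over those genes was -0.03. On each GFP-positive array between 22 and 24 of the 26 genes lay below their own mean over the 6 arrays, and on the GFP-negative arrays 1, 7 and 3 did for replicates 1, 2 and 3. The lower level was thus seen on each GFP-positive array, and without any one array the median difference of the 26 stayed between -0.21 and -0.17. The median over the 26 genes was 7.55, 7.50 and 7.54 on the GFP-positive arrays and 7.81, 7.71 and 7.81 on the GFP-negative arrays.

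**Figure D1:**
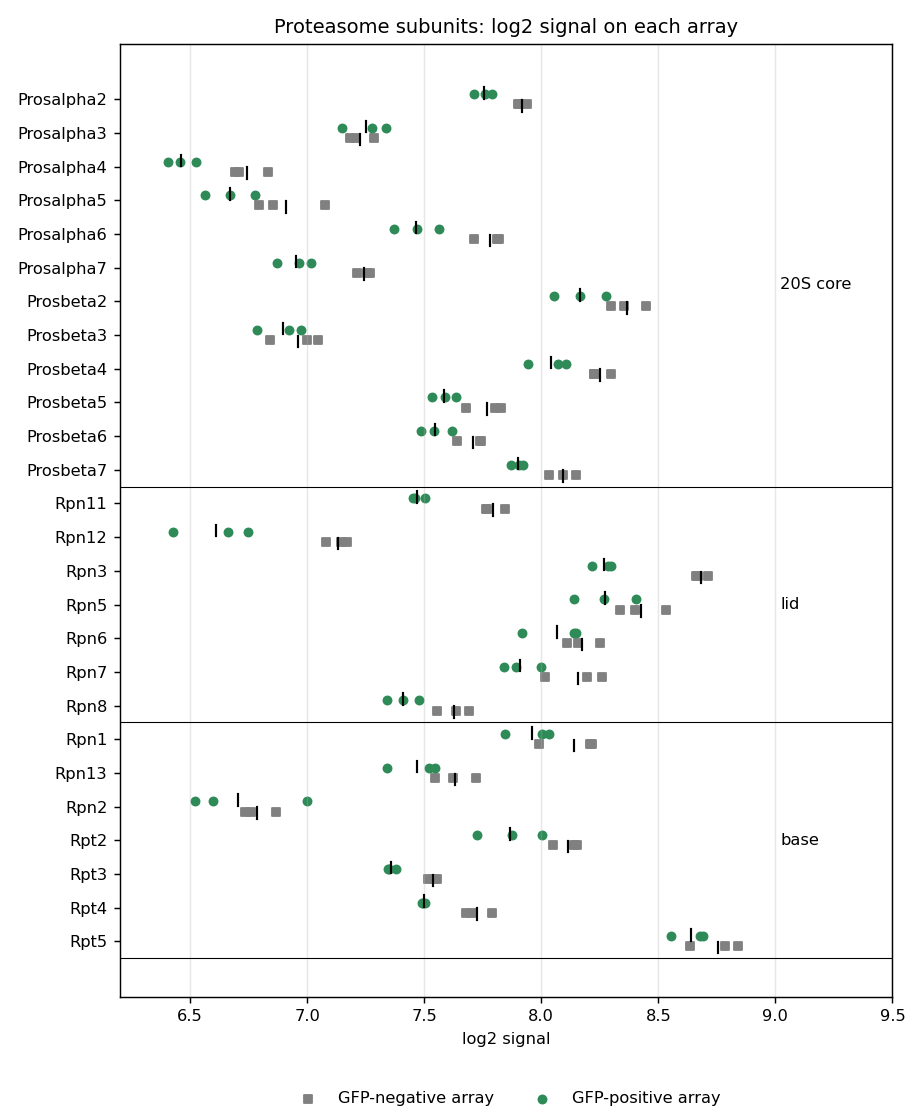
Log2 signal (horizontal axis) of the 26 core, lid and base genes on each array, with circles for the 3 GFP-positive and squares for the 3 GFP-negative arrays and short black lines for the group means. In 19 of the 26 genes the circles all lie to the left of the squares, with Rpn3, Rpn11 and Rpn12 the 3 called genes.

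Gene span moved with the difference between the groups over the whole array, and proteasome genes are short. The annotated span, from first to last base of the gene in the Release 6 reference, had a median of 1378 bases over the 26 genes and 2385 over all genes. Above a mean level of 6, the median difference ran from -0.20 in the decile of the shortest spans to 0.28 in the decile of the longest. Of the 819 genes of that level with a span up to 2000 bases, 82.9% had a negative difference, with a median of -0.15 and a middle range of quartiles from -0.25 to -0.04. In that class 8.79% were called lower and 39.8% had groups that did not overlap in that direction.

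Of the 21 proteasome genes with a span up to 2000 bases, 14 lay between those quartiles, 6 below them (Prosalpha4, Prosalpha6, Prosalpha7, Rpn3, Rpn11 and Rpn12) and 1, Prosalpha3, above. These 21 had a median of -0.21, 3 calls (14.3%) and 18 with groups that did not overlap (85.7%). After a trend on span was taken out of every array, the median of the 26 was -0.10, that of the core -0.10, of the lid -0.23 and of the base -0.10. The sign stayed negative in 24 of the 26, and of the 3 calls that of Rpn3 remained. The trend was fitted over probe sets of every level, dim ones included. It moved Prosbeta4, with a span of 954 bases, from -0.21 to -0.10. Genes above a mean level of 6 in the decile of the shortest spans had a median of -0.20. A part of the span trend of bright genes may thus remain in the adjusted values. Whether span itself acts on the measured signal was not tested.

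**Figure D2:**
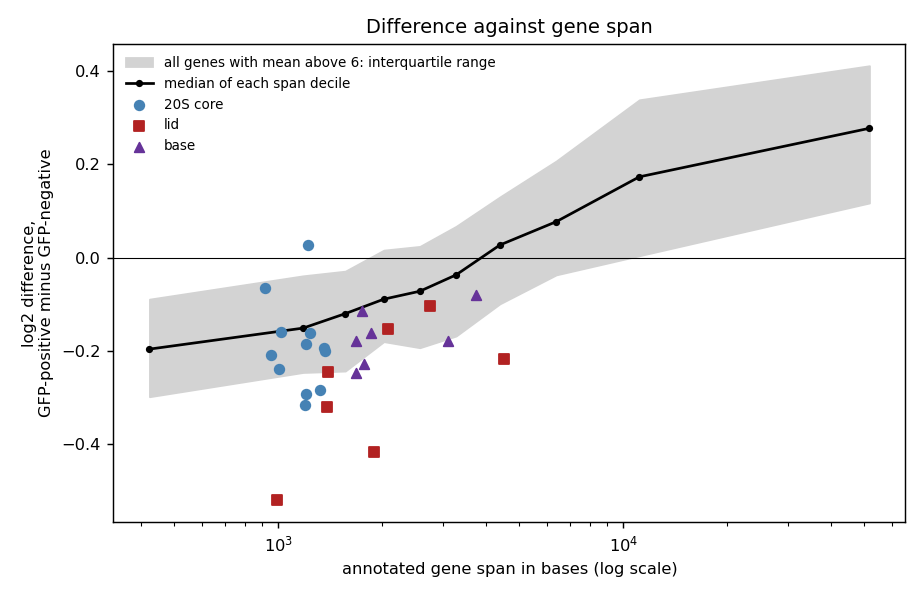
Log2 difference, GFP-positive minus GFP-negative (vertical axis), against annotated gene span in bases (log axis). The line joins the medians of 10 span classes of all genes above a mean level of 6, each placed at the geometric mean of its limits, the band spans the quartiles, and the symbols are the 26 core, lid and base genes. Medians run from -0.20 for the shortest to 0.28 for the longest genes, and most symbols lie below 0 at the short end, with Rpn12 and Rpn3 lowest.

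The lid had a median of -0.25 over its 7 genes, all negative, and groups that did not overlap in 5. Differences between the classes were not tested, and without GFP-positive replicate 1 the medians of lid and core were -0.21 and -0.22. Rpn3, a scaffold subunit of the lid with a PCI domain, had a log2 signal of 8.28, 8.30 and 8.22 in GFP-positive and 8.66, 8.67 and 8.71 in GFP-negative cells. The groups lay far apart compared with their spread, and Rpn3 fell by 0.42 ± 0.05 on the log2 scale (SE, n = 3 per group, limma adjusted p = 0.0065), a change of -25.0%. After the span adjustment its difference was -0.34 (adjusted p = 0.021).

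Rpn12, another PCI subunit, whose entry completes lid assembly in yeast, had the largest difference of the 26 core, lid and base genes. Its log2 signal was 6.75, 6.42 and 6.66 in GFP-positive and 7.14, 7.17 and 7.08 in GFP-negative cells. GFP-positive replicate 2 was the lowest, and the groups did not overlap. Rpn12 fell by 0.52 ± 0.10 (SE, adjusted p = 0.028), a change of -30.3%. The span adjustment left -0.41 and ended the call (adjusted p = 0.089), and the call was also lost without any one of 5 of the 6 arrays, with values down to -0.43 without GFP-positive replicate 2.

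Rpn11 is the metalloprotease that cuts the ubiquitin chain off the substrate as it enters the core. Its signal was 7.45, 7.46 and 7.50 in GFP-positive and 7.76, 7.77 and 7.85 in GFP-negative cells, tight within each group and without overlap. It fell by 0.32 ± 0.06 (SE, adjusted p = 0.031), a change of -19.9%, and the call was lost after the span adjustment (-0.23, adjusted p = 0.146) and without any one array (adjusted p up to 0.136). Rpn8, the catalytically inactive partner of Rpn11, lay at 7.34, 7.41 and 7.48 against 7.56, 7.69 and 7.64. The groups were apart, but the difference of -0.22 ± 0.07 did not pass (adjusted p = 0.167). Rpn8 has the longest span of the 26, 4500 bases, and its difference was -0.23 after the span adjustment.

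The other lid genes are PCI scaffold subunits, and none passed. Rpn7 had 7.84, 7.89 and 8.00 in GFP-positive and 8.19, 8.02 and 8.26 in GFP-negative cells, again without overlap (difference -0.25 ± 0.08, adjusted p = 0.167). For Rpn5 and Rpn6 the groups overlapped. Rpn5 differed by -0.15 ± 0.08 (95% interval -0.34 to 0.04) and Rpn6 by -0.10 ± 0.08 (95% interval -0.28 to 0.08).

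**Figure D3:**
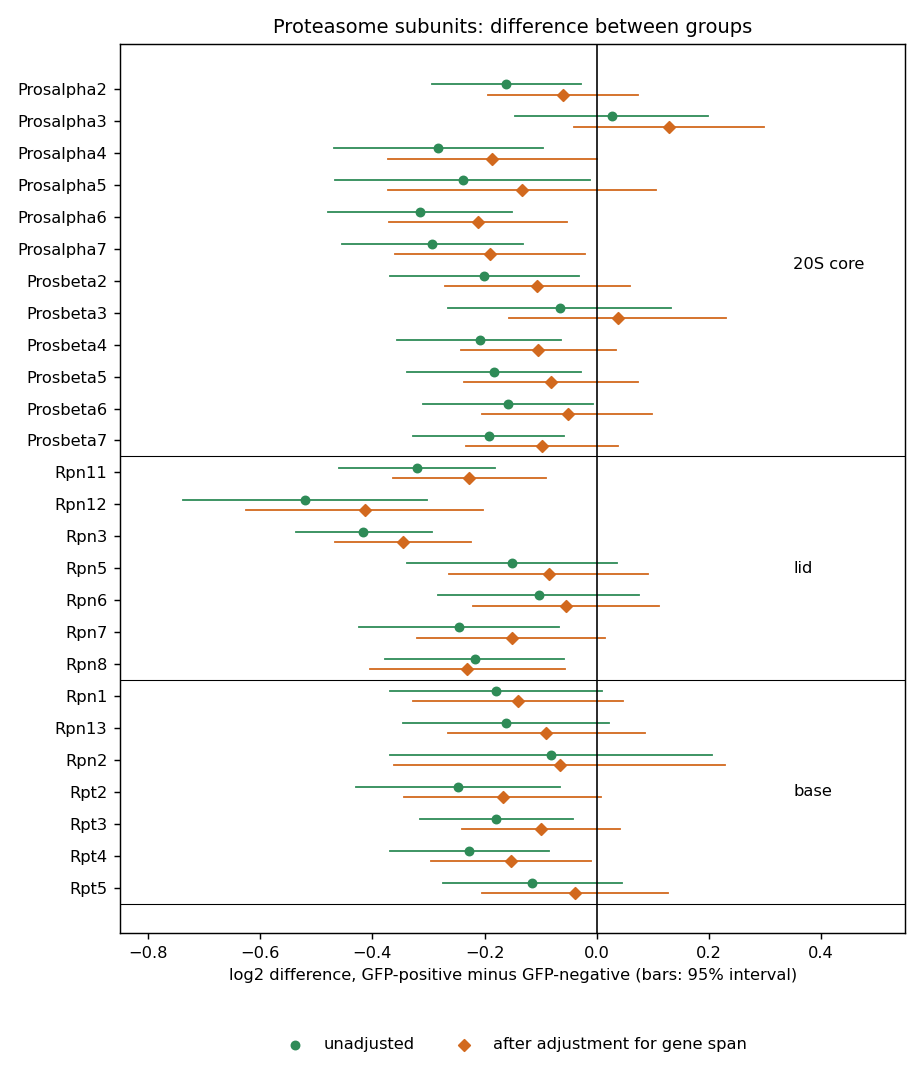
Log2 difference, GFP-positive minus GFP-negative, of each of the 26 genes with its 95% interval, as deposited (circles) and after the adjustment for gene span (diamonds). Circles lie left of 0 in 25 genes and diamonds in 24, with Rpn12 at -0.52 and -0.41 and Rpn3 at -0.42 and -0.34.

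In the core, 11 of 12 genes had a negative difference and 10 had groups that did not overlap, with a median of -0.20, but limma called 0 of the 12. At an unadjusted p under 0.05, 10 of them were lower and none higher, where 8.29% of all genes were lower and 7.33% higher, and 21.0% and 16.6% of genes with a mean level above 6. The alpha subunits form the outer rings and the gate, and their 6 genes had a median of -0.26. Prosalpha6 came nearest to a call, with 7.56, 7.37 and 7.47 in GFP-positive and 7.82, 7.71 and 7.81 in GFP-negative cells. Its groups were clearly apart (difference -0.32 ± 0.07, adjusted p = 0.064). Prosalpha7, with 6.97, 7.02 and 6.87 against 7.25, 7.21 and 7.27, was next (difference -0.29 ± 0.07, adjusted p = 0.075).

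The remaining alpha genes went the same way with 1 exception. Prosalpha4 lay at 6.52, 6.45 and 6.40 against 6.83, 6.69 and 6.71, without overlap (difference -0.28 ± 0.08, adjusted p = 0.129). Prosalpha5 differed by -0.24 ± 0.10 and Prosalpha2 by -0.16 ± 0.06, both without overlap of the groups. Prosalpha3 was the exception among the 26, with 7.15, 7.28 and 7.34 in GFP-positive and 7.18, 7.21 and 7.29 in GFP-negative cells. The values were mixed between the groups, and the difference of 0.03 ± 0.08 had a 95% interval from -0.14 to 0.20. How far it stands from the other alpha genes was not tested.

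The beta rings hold the proteolytic sites, and their 6 genes had a median of -0.19. Prosbeta5, the subunit with chymotrypsin-like activity, had 7.53, 7.64 and 7.59 in GFP-positive and 7.83, 7.68 and 7.80 in GFP-negative cells. Prosbeta2, with trypsin-like activity, had 8.28, 8.05 and 8.17 against 8.45, 8.35 and 8.30. In both the groups came close without overlap, and the differences of -0.18 ± 0.07 and -0.20 ± 0.07 did not pass (adjusted p = 0.242 for each). The structural beta genes Prosbeta4, Prosbeta7 and Prosbeta6 differed by -0.21 ± 0.06, -0.19 ± 0.06 and -0.16 ± 0.07, each without overlap. Prosbeta3 had 6.79, 6.92 and 6.98 against 7.00, 7.04 and 6.84, where the groups overlapped, and differed by -0.07 ± 0.09 (95% interval -0.27 to 0.13).

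The genes of the base all had negative differences, with a median of -0.18 over 7 genes and groups apart in 4, and limma called 0 of them, with 3 lower and 0 higher at an unadjusted p under 0.05. Among the ATPases, Rpt4 had 7.50, 7.50 and 7.49 in GFP-positive and 7.79, 7.71 and 7.68 in GFP-negative cells. Its GFP-positive arrays were nearly equal and all lower (difference -0.23 ± 0.06, adjusted p = 0.108). Rpt3, which was as even at 7.35, 7.38 and 7.35 against 7.54, 7.56 and 7.52, differed by -0.18 ± 0.06 (adjusted p = 0.194). Rpt2 differed by -0.25 ± 0.08 without overlap of the groups, and Rpt5 by -0.11 ± 0.07 with overlap.

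The base also holds ubiquitin binding and scaffold subunits. Rpn13, a ubiquitin receptor, had 7.52, 7.34 and 7.54 in GFP-positive and 7.62, 7.55 and 7.72 in GFP-negative cells, so its groups touched without crossing (difference -0.16 ± 0.08). Rpn1, the large scaffold that also docks ubiquitin-like domains, had 8.00, 7.84 and 8.03 against 8.21, 8.22 and 7.99, with the lowest GFP-negative array inside the GFP-positive range (difference -0.18 ± 0.08). Rpn2, the related scaffold, was the most variable of the 26, at 6.52, 7.00 and 6.60 against 6.76, 6.73 and 6.87. Its difference of -0.08 ± 0.13 was set by GFP-positive replicate 2, the highest of all 6 arrays, and was -0.23 without it.

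The 13 T/R paralogs were at or near background. Both group means lay below the level of 2.44 in 11 of them, single arrays ranged from -0.83 to 4.29, and limma called 0 of the 13, with 1 higher and 0 lower at an unadjusted p under 0.05. Of the 13 differences 6 were negative and 7 positive, and none had groups that did not overlap in either direction. Signal this dim scatters widely: the within-group SD went up to 2.11, against at most 0.26 in the other 26 genes, so no direction is read from them.

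Both exceptions had a single group mean above the background level. Prosbeta2R2, a copy of Prosbeta2, had 3.62, 4.29 and 2.74 in GFP-positive and 3.11, 1.51 and 1.89 in GFP-negative cells. The groups overlapped, and it did not pass (adjusted p = 0.332). Rpt4R, the copy of Rpt4, had 1.89, 3.78 and 0.06 in GFP-positive and 3.48, 3.63 and 3.24 in GFP-negative cells. Its GFP-negative arrays were even and its GFP-positive arrays spanned the range from background to above them (adjusted p = 0.476). Some single arrays of other copies also rose above background, such as Prosbeta5R1 with 3.32 on GFP-positive replicate 3 and 0.61 and 0.87 on the other GFP-positive arrays.

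**Figure D4:**
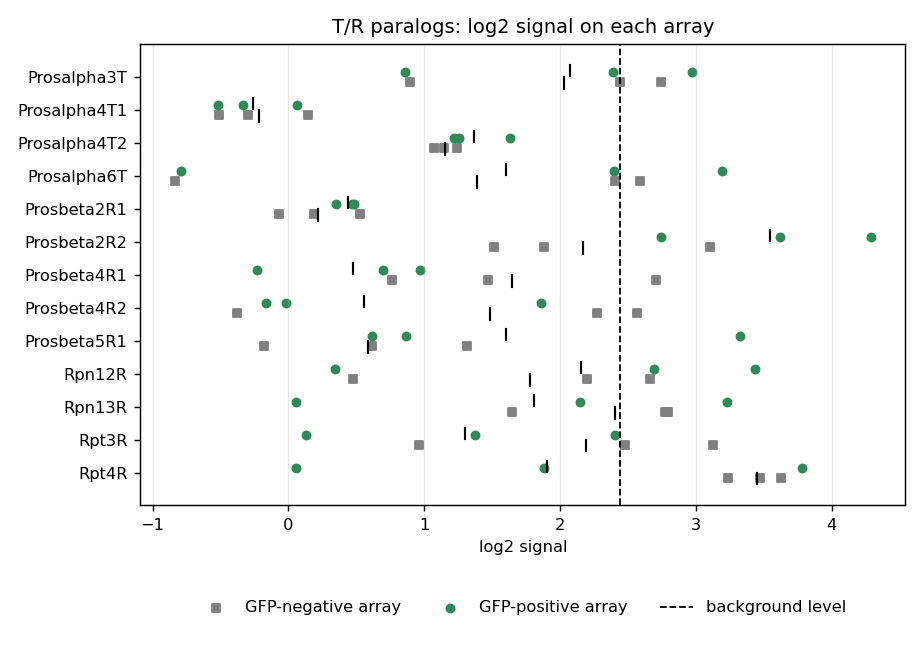
Log2 signal (horizontal axis) of the 13 T/R paralogs on each array, with circles for GFP-positive and squares for GFP-negative arrays, short black lines for group means and a dashed line at the background level of 2.44. Most points lie left of the dashed line, and the groups overlap in every gene.

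Copies whose symbols carry T are Prosalpha3T, Prosalpha4T1, Prosalpha4T2 and Prosalpha6T. Group means of Prosalpha4T1 were -0.26 and -0.22, GFP-positive first, and Prosalpha4T2 had 1.37 and 1.15. Prosalpha3T had 2.07 and 2.03, and Prosalpha6T 1.60 and 1.39. Group means of the R copies below background were 0.44 and 0.22 for Prosbeta2R1, 0.48 and 1.65 for Prosbeta4R1, and 0.56 and 1.49 for Prosbeta4R2, GFP-positive first. Those of Rpn12R were 2.16 and 1.78, those of Rpn13R 1.81 and 2.40, and those of Rpt3R 1.30 and 2.19. Of 7 markers of spermatocytes and spermatids 6 lay below background in both groups as well, with a mean level of 0.84 to 1.13 on GFP-positive and 0.37 to 0.88 on GFP-negative arrays.

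A few genes have more than 1 probe set or share one. The dimmer probe set of Prosalpha7 lay at background, with group means of 0.87 in both groups, and with the mean of both probe sets the difference of Prosalpha7 was -0.14 (adjusted p = 0.914) in place of -0.29. That of Prosbeta6 ran the other way, with 3.20, 2.73 and 3.52 in GFP-positive and 0.58, 2.65 and 0.03 in GFP-negative cells, and did not pass (adjusted p = 0.234). With the mean of both probe sets, Prosbeta6 had a difference of 0.95 in place of -0.16, which comes from the dim one. A further probe set is shared by Prosalpha1 and its copy Prosalpha1R and was left out of the members. It lay at 6.78, 6.68 and 6.63 against 6.85, 6.82 and 7.12, without overlap (adjusted p = 0.309). Prosbeta1, Rpt1, Rpt6, Rpn9 and Rpn10 were not analysed here. The lid subunit Rpn15 is also not among the members, since its gene carries the symbol Sem1, which the rule does not find. Sem1 was measured, with a mean level of 8.46, a difference of -0.32 and a span of 482 bases.

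Other genes of the ubiquitin pathway were examined beside the subunits. Of 60 genes in 6 lists 54 were measured, and limma called 0 of them, with 13 lower (24.1%) and 1 higher at an unadjusted p under 0.05. Negative differences numbered 39 and positive ones 15. In 14 genes (25.9%) the groups did not overlap, each time with GFP-positive cells lower. Over all genes 8.29% were lower at that p, 11.0% had groups apart in that direction and 52.7% had a negative difference. Among genes with a mean level above 6 these shares were 21.0%, 23.1% and 57.1%. The lists mix genes above that level with dimmer ones, such as Ubc6 at a mean of 3.25. Neither share is thus a matched reference, and no result about the pathway is drawn from these counts.

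Among 10 regulators and assembly factors of the proteasome, 6 had a negative difference, and the median was -0.08. REG, the nuclear activator cap of the core, had 8.50, 8.77 and 8.37 in GFP-positive and 8.55, 8.69 and 8.75 in GFP-negative cells, with overlap (difference -0.12 ± 0.10). The small Maf factor gene maf-S, whose product pairs with Cap-n-collar on DNA, lay at 7.65, 7.53 and 7.70 against 7.80, 7.89 and 7.91, without overlap (difference -0.24 ± 0.07, adjusted p = 0.132). Both lie within the spread of the list.

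Shuttle and unfoldase genes, which bring ubiquitylated proteins to the proteasome, numbered 6, of which 4 had a negative difference, with a median of -0.18. TER94, the p97 unfoldase, had 9.69, 9.72 and 9.84 in GFP-positive and 9.94, 9.98 and 9.99 in GFP-negative cells. Its groups were apart, and it came near a call (difference -0.22 ± 0.05, adjusted p = 0.067). Rad23, a shuttle receptor, differed by 0.03 ± 0.07, with mixed values.

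In the list of ubiquitin, E1 and E2 genes the 9 measured were ubiquitin and E2 genes, with no E1 gene among them. Of these 9, 6 had a negative difference (median -0.05). The polyubiquitin gene Ubi-p63E had 11.77, 11.77 and 11.65 in GFP-positive and 11.86, 11.93 and 12.02 in GFP-negative cells, apart but not called (difference -0.21 ± 0.05, adjusted p = 0.079). RpL40, a fusion of ubiquitin with a ribosomal protein, differed by -0.02 ± 0.04, with overlap. Ubiquitin coding genes share sequence, so their probe sets may read each other's transcripts.

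The ligase lists behaved likewise. For the anaphase-promoting complex, which marks mitotic cyclins for the proteasome, 7 of 11 genes had a negative difference (median -0.15). Its activators went opposite ways, fzy with -0.21 ± 0.07 (adjusted p = 0.176) and fzr with 0.22 ± 0.10 (adjusted p = 0.358), and the contrast between them was not tested. The same held for 8 of 10 cullin ligase genes (median -0.11). The RING subunit gene Roc1a differed by -0.15 ± 0.06 and the adaptor gene SkpA by -0.15 ± 0.05, both without overlap and neither past the test.

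The COP9 signalosome, a relative of the lid built of the same kinds of PCI and MPN subunits that removes Nedd8 from cullins, had negative differences in 8 of 8 genes, with a median of -0.19, and groups apart in 3, where 23.1% of genes above a mean level of 6 and 39.8% of the short ones among them had groups apart in that direction. CSN8 lay at 7.06, 7.08 and 7.29 in GFP-positive and 7.32, 7.56 and 7.57 in GFP-negative cells, without overlap (difference -0.34 ± 0.10, adjusted p = 0.123). CSN7 had 6.30, 6.66 and 6.62 against 6.73, 6.90 and 6.75, also apart (difference -0.27 ± 0.11). The median annotated span of this list, 1899.5 bases, is short as well.

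**Figure D5:**
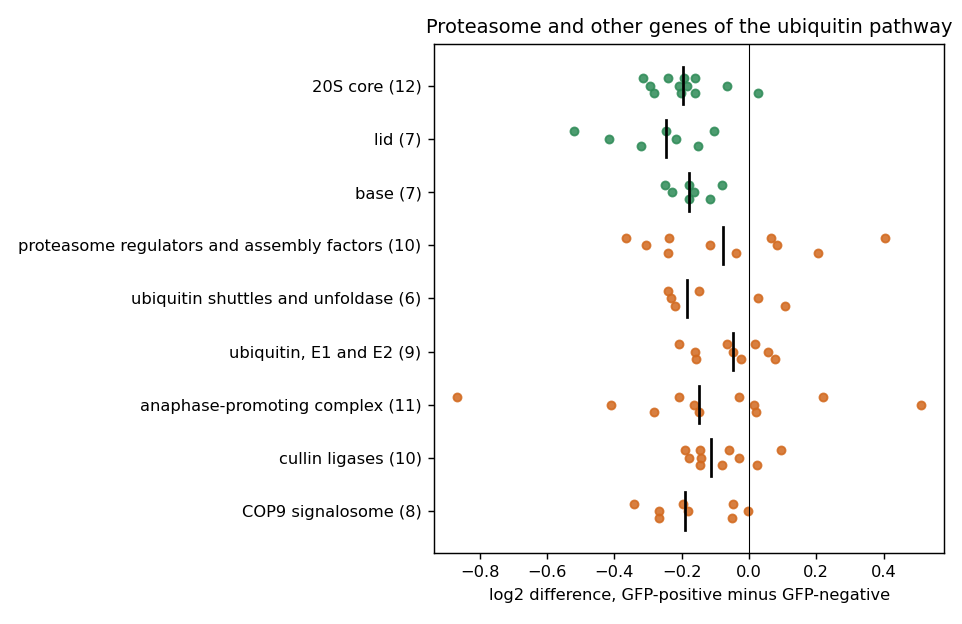
Log2 difference, GFP-positive minus GFP-negative (horizontal axis), of each measured gene of the 3 proteasome classes and of 6 other lists of the ubiquitin pathway, with the number of genes in brackets and a black line at each median. Medians lie at -0.20, -0.25 and -0.18 for core, lid and base and between -0.19 and -0.05 for the other lists.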

How the data were processed

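The values deposited by the authors are log2 signals, 1 for each probe set on each array. The submitters' processing notes name the affy package. How background was corrected, arrays scaled and probes summarised is not given in the sources used here. Base 2 was inferred for the logarithm, since 2 to the power of the highest value, 12.9, stays below the scanner's limit of 65535. Arrays may have been brought to a common level by the authors, which would hide a shift common to most genes. The number of arrays limits the precision.

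After 44 control probe sets were left out, 13966 entered a fit without a block (limma 3.58.1 under R 4.3.3, lmFit followed by eBayes with the trend and robust options), and p-values were adjusted by Benjamini-Hochberg over all of them, with a threshold of 0.05. "Rose", "fell" and "called" refer to this fit, and ± after a difference is its SE with n = 3 per group. It called 215 probe sets higher and 125 lower. Symbols come from a table of the platform's annotation: 12443 probe sets name 1 gene, 327 several and 1196 none. Of the first, 12394 matched the Release 6 gene table by Entrez identifier. Listed genes were matched by symbol or by a single synonym. For the span adjustment a lowess trend of each array's deviation on log10 span (smoother span 0.3) was subtracted before the fit. That trend was fitted over probe sets of every level that name 1 gene with a span.

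The members, the lists, the fit and the span adjustment were chosen with earlier results of these data known. All members may be named. From each pathway list the named genes are those called, or the 2 with the highest mean level where none was.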

Additional observations from a re-analysis of the deposited data

How the results depend on the processing

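With a single prior variance limma called 0 probe sets, 0 of the 26 core, lid and base genes among them, with a smallest adjusted p of 0.112. Leaving out each array in turn gave 1 to 2 of the 26 called lower, and 102 to 189 probe sets in all in place of 340. The medians then ran from -0.22 to -0.16 in the core, -0.32 to -0.21 in the lid and -0.20 to -0.16 in the base. After the span adjustment 1 of the 26 was called and 142 probe sets in all, and the medians were -0.101 in the core, -0.099 in the base and -0.105 over the 26 together. The same probe sets without the adjustment gave 3 calls among the 26, an alternative chosen after seeing the data. Without the dimmest 40% of probe sets 5 of the 26 and 655 probe sets were called, Prosalpha6 (adjusted p = 0.028) and Prosalpha7 (0.041) in addition. The sign of Prosalpha3 turned without GFP-positive replicate 3 (-0.014) and that of Rpn2 without GFP-positive replicate 1 (0.012). Over all arrays left out in turn they ran from -0.014 to 0.079 and from -0.228 to 0.012. Prosbeta3 turned after the span adjustment (0.038) and Prosbeta6 with the mean of all probe sets (0.955). None of these 4 was called. Rpn3 stayed called in 14 of 15 alternatives, all but the single prior variance, Rpn12 in 8 and Rpn11 in 7. Quantile normalization, median centring, array weights, a pseudocount of 32 and the mean of all probe sets each left the same 3 genes called.

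Deviations of same-numbered arrays from their group means had correlations of 0.060, 0.012 and 0.024 over all probe sets. Over the 26 genes they were 0.374, -0.218 and -0.138. The first values include many dim probe sets, where noise may hide a shared deviation. Over probe sets with a mean above background the correlations were small as well, at 0.079, 0.018 and 0.018. The labels do not say whether the numbers pair the arrays. Pairing is therefore left undecided. With the replicate number as a block limma called 4 of the 26, with Prosalpha6 added (adjusted p = 0.039), and 437 probe sets in all in place of 340.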
